A study of Homo sapiens with 8 samples.

Results

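The proteasome subunit genes are described here in 8 pull-down libraries of human leukaemia cells. They were taken by symbol, as protein-coding genes whose name begins with PSM, a letter from A to G and a number, which gave 50 of the 63140 genes in the table. By role they comprise 8 alpha and 7 constitutive beta genes of the 20S core, 4 immunoproteasome and tissue-specific beta genes, 6 ATPase and 14 non-ATPase genes of the 19S regulatory particle, 4 activator genes, 1 inhibitor gene and 4 genes of core assembly chaperones. The 14 non-ATPase genes include PSMD5, PSMD9 and PSMD10, whose products help to assemble the 19S particle and are not part of the finished one. PSMC3IP and PSME3IP1 met the naming rule as well, but their products are not subunits, and they were kept as a class of 2. Enough counts for testing were present for 48 genes. PSMA8, a testis-specific alpha gene, and PSMB11, the beta gene of the thymus, had 0 counts in all 8 libraries and could not be tested.

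The libraries came from ChIRP, a method that fixes cells, shears them, fishes out chromatin with biotin-tagged oligonucleotides and sequences the RNA that comes along. The labels do not give the target of the probes and list no input library, so each value is an amount of RNA in a pull-down and not an enrichment or a cellular level. Cells labelled MOLM13 and OCI-AML4, 2 established acute myeloid leukaemia lines, were nucleofected with guide RNA and taken on day 3 after editing. The editor was either Cas9 ribonucleoprotein, labelled KO, or a cytosine base editor, labelled CBE. Guides were directed at HOTSCRAMBL, a long non-coding RNA, or at AAVS1, the control site, whose libraries carry the genotype label WT. Either editor was used at either site, and each of the resulting 4 groups held 2 libraries, 1 labelled MOLM13 and 1 labelled OCI-AML4. No unedited group was analysed here. The labels do not say whether the libraries of an editing group came from independent editing experiments, so p-values measure the spread between these libraries.

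The proteasome degrades proteins marked with ubiquitin. Its 20S core is a barrel of stacked rings, in which outer alpha rings gate the entry and inner beta rings carry the protein-cutting sites, supplied by PSMB5, PSMB6 and PSMB7. The 19S particle binds the ubiquitin chain, removes it, and unfolds the substrate with its ring of ATPases. Interferon can induce PSMB8, PSMB9 and PSMB10, which replace the constitutive catalytic subunits to form the immunoproteasome, a source of peptides for HLA class I molecules. Blood cells often carry both forms, and myeloid leukaemia and myeloma cells are among those in which proteasome inhibitors have been studied.

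Letters known from the control of these genes were searched in the promoter windows of RefSeq (GRCh38.p14), which run from 250 bases before to 50 bases after a listed start. Windows were found for 44 of the 50 genes, and PSMD4, PSMA7, PSMB1, PSMB6, PSMB7 and PSMG3 had no entry. Both strands were searched. The core of the interferon-stimulated response element, which is TTTC repeated with any pair of bases between, was present in 7 of 44 genes (15.9%), against 4.38% of all genes with a window and 4.15% of tested protein-coding ones. The 7 windows are shown because they set the immunoproteasome and PA28 activator genes beside others, with the matching letters in capitals, in either orientation, read 5′ to 3′ on the gene's strand.
PSMB8 (chr6:32844032-32844061, minus strand): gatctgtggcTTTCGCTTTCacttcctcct
PSMB10 (chr16:67936852-67936881, minus strand): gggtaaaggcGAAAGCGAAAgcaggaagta
PSME1 (chr14:24136189-24136218, plus strand): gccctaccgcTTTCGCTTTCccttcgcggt
PSME2 (chr14:24146619-24146648, minus strand): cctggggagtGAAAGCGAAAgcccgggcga
PSMG4 (chr6:3258904-3258933, plus strand): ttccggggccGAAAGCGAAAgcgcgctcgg
PSMB4 (chr1:151399495-151399524, plus strand): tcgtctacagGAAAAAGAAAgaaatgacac
PSMA4 (chr15:78540155-78540184, plus strand): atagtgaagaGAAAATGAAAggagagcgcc
In PSMB8, PSMB10, PSME1, PSME2 and PSMG4 the capitals are the same 10 letters, read on one strand or the other. PSMB9, the remaining immunoproteasome gene, had no such letters in its window. A match describes the sequence only and does not show a bound site.

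The core of the antioxidant response type element, TGACNNNGC, to which NFE2L1 binds when proteasome activity is short, was found in 15 of 44 genes (34.1%), against 16.1% of all genes and 19.4% of tested protein-coding ones. A pair of examples, with the matching letters in capitals, is given because NFE2L1 itself is described below.
PSMD3 (chr17:39980759-39980788, plus strand): ttcccctttgtTGACTCGGCcatcggcctg
PSMB3 (chr17:38752626-38752655, plus strand): cgcctccgtttTGACTTTGCaaccaaacta
The ETS core CCGGAAGT occurred in 11 of 44 genes (25%, against 4.95% of all genes and 9.39% of tested protein-coding ones) and CCAAT in 22 of 44 (50%, against 39.7% and 43%). PSMF1, the gene with the clearest difference between groups, held the ETS core on the opposite strand at position −6 from one of its 2 listed starts. Its window up to shortly after that start is shown with these letters in capitals.
PSMF1 (chr20:1118352-1118621, plus strand): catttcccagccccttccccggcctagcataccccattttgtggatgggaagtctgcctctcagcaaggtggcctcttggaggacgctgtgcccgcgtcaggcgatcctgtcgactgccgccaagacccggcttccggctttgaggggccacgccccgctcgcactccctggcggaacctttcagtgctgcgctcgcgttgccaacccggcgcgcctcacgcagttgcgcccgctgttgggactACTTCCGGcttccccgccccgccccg

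Total counts ran from 20548300 to 37970163 per library, of which the 50 genes took 0.193% to 0.209% in the AAVS1 libraries and 0.214% to 0.236% in the HOTSCRAMBL libraries. Other RNA classes moved with the groups. Mitochondrial RNA made up 6.77% to 7.23% of counts in AAVS1 and 10.2% to 11.9% in HOTSCRAMBL libraries, and ribosomal protein genes 1.32% to 1.59% and 3.20% to 4.46%. Of 8 myeloid markers all were present, SPI1 at 247 to 286 CPM (counts scaled to library size), and their summed level was 1773 to 1896 CPM in AAVS1 and 2181 to 2299.5 in HOTSCRAMBL libraries with KO, and 1772 to 1794, then 1715 to 1754, with CBE. With KO, 2 of the 8 markers (25%) were called higher, CEBPA and LYZ, against 4.51% of all tested genes. LYZ stood at 120 and 141 CPM in AAVS1 and 506 and 702 in HOTSCRAMBL libraries. The other 6 had negative log2 fold changes (median of the 8, −0.13), and 5 (62.5%) were separate and lower, against 23.8% of all genes. With CBE, 2 markers were called higher and 1 lower, against 4.56% and 4.27% of all genes. There 4 (50%) were separate and higher and 3 (37.5%) separate and lower, against 22.7% and 23.7%. The part of this shift in the proteasome values was not tested. HBB, CD3E, CD2, PF4 and PPBP were at 0 in every library. Between the labelled lines 119 of 24057 genes (0.495%) passed the test, 0.237% higher and 0.258% lower in MOLM13, and none was a proteasome gene (edgeR, 2 at an unadjusted p under 0.05). DESeq2 called 715 of all genes there and 0 of the 48 tested proteasome genes. The line labels rest on the titles and were not checked against a library of known line. The difference between the 2 labelled libraries of a group correlated only weakly between groups (r = 0.0154 to 0.0411). Whether the libraries hold 2 distinct lines was not tested.

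The first question was how Cas9 editing at HOTSCRAMBL, and then base editing there, changed the recovered proteasome mRNAs. Few single genes passed the test. With KO, PSMF1 and PSME1 rose and PSMG3 fell, which is 3 of 48 (6.25%), against 8.76% of all 24057 tested genes (4.51% higher and 4.25% lower). With CBE, PSMF1, PSMD7 and PSMB8 rose and PSMG3 fell, which is 4 of 48 (8.33%), against 8.83% of all genes (4.56% higher and 4.27% lower). Both shares lay near or below the background over all genes, and below that of tested protein-coding genes, of which 13.1% were called with KO and 13.7% with CBE. PSMF1 and PSMG3 were called with both editors, each in the same direction. The KO and CBE comparisons share no library, but the fit took the spread and the line term from all 8 libraries. In bulk RNA, fewer cells with a transcript and less of it per cell cannot be told apart. In the main edgeR fit, every called gene was among the 24 tested members whose exons overlap another gene. In the called genes the overlap ran from 0.507% of exon length (PSME1) to 31.2% (PSMD7). The counts used no strand and left out reads overlapping several genes. Of the 24 tested members without such overlap, 0 were called in either comparison in that main fit (edgeR, 5 and 9 at an unadjusted p under 0.05 with KO and CBE). PSMB6, which has no such overlap, was called higher with KO under 1 of 17 alternatives. The part of overlap in the calls was not tested.

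Below that threshold the values leaned upward. The median log2 fold change of the 48 genes was 0.20 with KO and 0.34 with CBE, against −0.01 and −0.02 over all tested genes, and 33 and 37 of the 48 had positive values. In 20 genes (41.7%) both HOTSCRAMBL KO libraries lay above both AAVS1 KO libraries, against 21% of all genes, and in 9 (18.8%) both lay below, against 23.8%. With CBE, 28 genes (58.3%) lay above, against 22.7%, and 4 (8.33%) below, against 23.7%. Between the AAVS1 groups, which differ only in the editor, 10 genes (20.8%) were higher with KO, against 14.1%, and 7 (14.6%) lower, against 15.8%. edgeR called none there, among the 48 or among all genes (0%), with 0 of the 48 and 918 of all genes at an unadjusted p under 0.05. DESeq2 called 35 of all genes and 0 of the 48.

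Without scaling beyond the total count the medians of the 48 genes were 0.04 and 0.20, and those of all genes moved down with them, to −0.17 and −0.15. With RLE size factors they were 0.23 and 0.33, and with scaling over nuclear protein-coding genes other than ribosomal protein genes 0.24 and 0.32. Within the MOLM13-labelled pairs the median difference was 0.18 with KO and 0.38 with CBE, and within the OCI-AML4-labelled pairs 0.11 and 0.24. Set beside other housekeeping machines, the 84 tested ribosomal protein genes had medians of 1.54 and 1.21, with 70 and 73 called higher. The 78 genes of oxidative phosphorylation had medians of 0.56 and 0.59, with 13 and 17 called higher and 36 (46.2%) and 45 (57.7%) separate and higher. The part of the shift in ribosomal and mitochondrial RNA in the proteasome values was not tested.

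**Figure D1:**
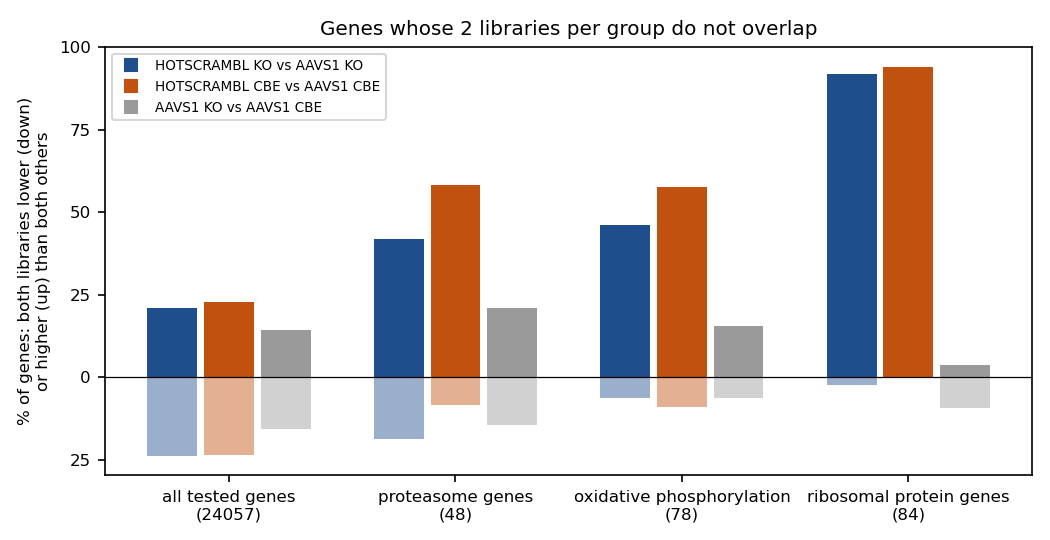
Share of genes (vertical axis, %) whose 2 libraries per group do not overlap, upward for higher and downward, in pale colour, for lower, in 4 sets of tested genes with their number in brackets. Proteasome genes stood at 41.7% and 58.3% higher for HOTSCRAMBL KO and CBE, near oxidative phosphorylation genes (46.2% and 57.7%), while 91.7% and 94% of ribosomal protein genes were separate and higher.

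In the 20S core, of alpha and constitutive beta genes, no gene was called with either editor in the main fit. With CBE all 14 tested core genes had positive values, from 0.09 for PSMA1 to 1.01 for PSMA6, with a median of 0.62, and in 11 of them (78.6%) both HOTSCRAMBL libraries lay above both controls, against 22.7% of all genes. None passed the test (edgeR, 8 at an unadjusted p under 0.05). With KO, 9 values were positive and 5 negative, from −0.72 for PSMB5 to 1.29 for PSMB6, with a median of 0.17, and again none was called (edgeR, 3 at an unadjusted p under 0.05). No core gene passed the test of the difference between the 2 effects (edgeR, 3 at an unadjusted p under 0.05).

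The 3 constitutive catalytic genes are given in each library, in CPM after TMM scaling, with the MOLM13-labelled library first and the AAVS1 pair before the HOTSCRAMBL pair. PSMB5, the chymotrypsin-like site and main target of proteasome inhibitors, stood at 17.5 and 16.3 in the AAVS1 and 6.22 and 14 in the HOTSCRAMBL libraries with KO, and 10.6 and 10.6, then 16.4 and 18.7, with CBE. It was thus lower than control in both KO libraries and higher in both CBE libraries, with log2 fold changes of −0.72 (SE 0.419, edgeR adjusted p 0.364) and 0.73 (SE 0.363, edgeR adjusted p 0.267), neither past the threshold. The KO value was −0.30 without HOTSCRAMBL KO replicate 1 and −1.43 without replicate 2. Both AAVS1 KO libraries of PSMB5 lay above both AAVS1 CBE libraries (log2 fold change 0.67, not called), as in 14.1% of all genes. PSMB6, the caspase-like site, had 5.33 and 11.1, 13.8 and 26.2, 8.61 and 13.2, and 15.4 and 12.9 CPM in the same order of groups. Its KO libraries did not overlap (log2 fold change 1.29, edgeR adjusted p 0.0625) and its CBE libraries did (0.44, edgeR adjusted p 0.58, turning to −0.13 without HOTSCRAMBL CBE replicate 1). The KO value of PSMB6 passed the threshold under 1 of 17 alternatives. PSMB7, the trypsin-like site, had 17.9 and 24.8, 13.2 and 34.4, 26.4 and 24.6, and 33.3 and 45.8 CPM. Its HOTSCRAMBL KO libraries lay on either side of the controls, and its log2 fold change of 0.17 turned to −0.56 without HOTSCRAMBL KO replicate 2.

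Of the immunoproteasome genes, PSMB8 rose with base editing. It stood at 7.32 and 6.92 CPM in the AAVS1 and at 18.5 and 17.4 in the HOTSCRAMBL libraries, with no overlap and little spread within either group (log2 fold change 1.33, SE 0.381, edgeR adjusted p 0.0254). With KO it had 11.4 and 13.4 CPM in AAVS1 and 18.5 and 14.2 in HOTSCRAMBL libraries, also without overlap (0.39, SE 0.391, edgeR adjusted p 0.641). The 2 effects did not pass the test of their difference (−0.94, SE 0.554, edgeR adjusted p 0.478). The controls did not overlap either, with both AAVS1 KO libraries above both AAVS1 CBE libraries (0.79, not called), as in 14.1% of all genes. PSMB8 shares 17.3% of its exon length with PSMB9 and PSMB8-AS1. The CBE call was lost when AAVS1 KO replicate 1 or 2, AAVS1 CBE replicate 1 or 2, or HOTSCRAMBL CBE replicate 1 or 2 was left out. It was also lost with limma-voom (adjusted p 0.051) and with only the 4 libraries of the contrast (edgeR adjusted p 0.0996). The log2 fold change stayed between 1.19 and 1.34 under all 17 alternatives.

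PSMB10 had 23.6 and 15.5 CPM in the AAVS1 and 23.4 and 22.2 in the HOTSCRAMBL libraries with KO, and 21.4 and 40.3, then 30.0 and 26.1, with CBE. The groups overlapped in both comparisons, and the sign of its log2 fold changes, 0.21 and −0.09, was set by single libraries: without AAVS1 KO replicate 2 the first was −0.18, and without AAVS1 CBE replicate 2 or HOTSCRAMBL CBE replicate 2 the second was 0.52 or 0.10. PSMB9 was close to absent, with 18 and 51 counts in the AAVS1 and 0 and 27 in the HOTSCRAMBL libraries with KO, and 38 and 0, then 101 and 58, with CBE. At this depth no difference in PSMB9 was detectable (edgeR adjusted p 0.747 with KO and 0.314 with CBE). Its KO value of −1.08 turned to 0.05 without AAVS1 KO replicate 2. Its CBE value was 2.06 (SE 1.12), with both HOTSCRAMBL libraries above both controls, as in 22.7% of all genes.

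**Figure D2:**
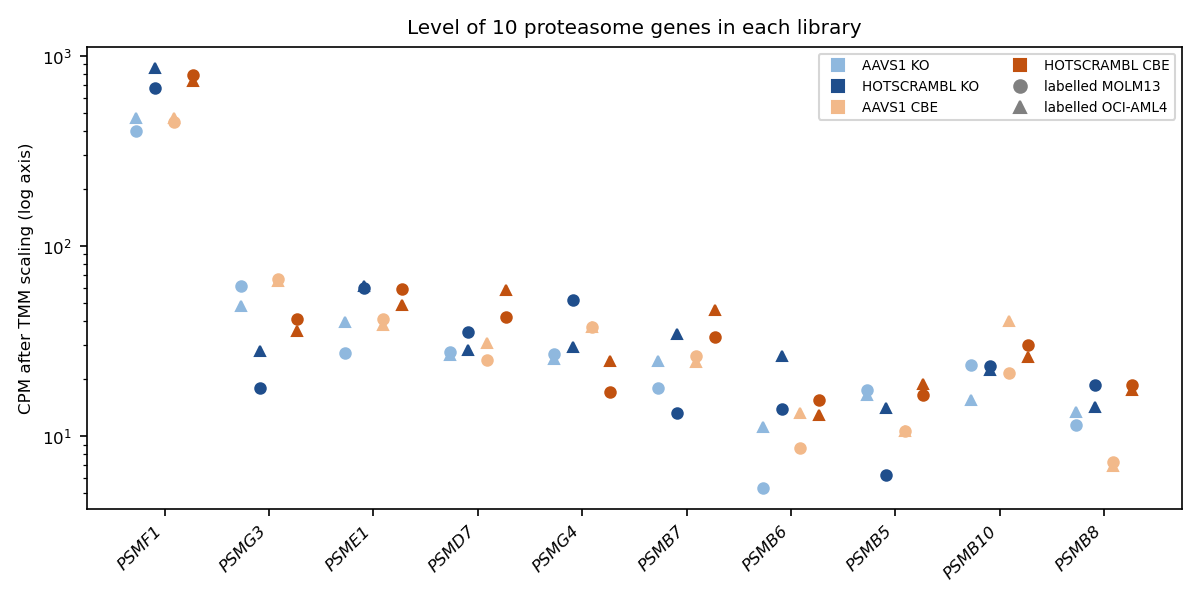
Level (vertical log axis, CPM after TMM scaling) of 10 proteasome genes in each of the 8 libraries, coloured by group, with circles for MOLM13-labelled and triangles for OCI-AML4-labelled libraries. PSMF1 stood at 400.5 CPM or more everywhere and was higher in all 4 HOTSCRAMBL libraries, while PSMB7 and PSMB10 overlapped between groups in at least 1 comparison.

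The immunoproteasome share at each catalytic place was taken from levels per kilobase of exon, since the paired genes differ in length. For PSMB8 against PSMB5 it was 22.4% and 26.7% in the AAVS1 and 56.9% and 31.1% in the HOTSCRAMBL libraries with KO, and 23.6% and 22.6%, then 33.4% and 29.3%, with CBE. All 4 HOTSCRAMBL libraries lay above all 4 AAVS1 libraries, and the value of 56.9% belongs to the library in which PSMB5 was at its lowest. For PSMB10 against PSMB7 the share ran from 38.5% to 66.2% with overlapping groups, and for PSMB9 against PSMB6 from 0% to 7.37%. With the exon length outside overlaps in place of the full length, the first share ran from 25.9% to 30.6% in AAVS1 and from 33.4% to 61.5% in HOTSCRAMBL libraries. The exons of PSMB10 overlap another gene over 39.4% of their length. Its share then ran from 50.8% to 76.3%, again with overlapping groups, and that of PSMB9 from 0% to 7.74%.

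**Figure D3:**
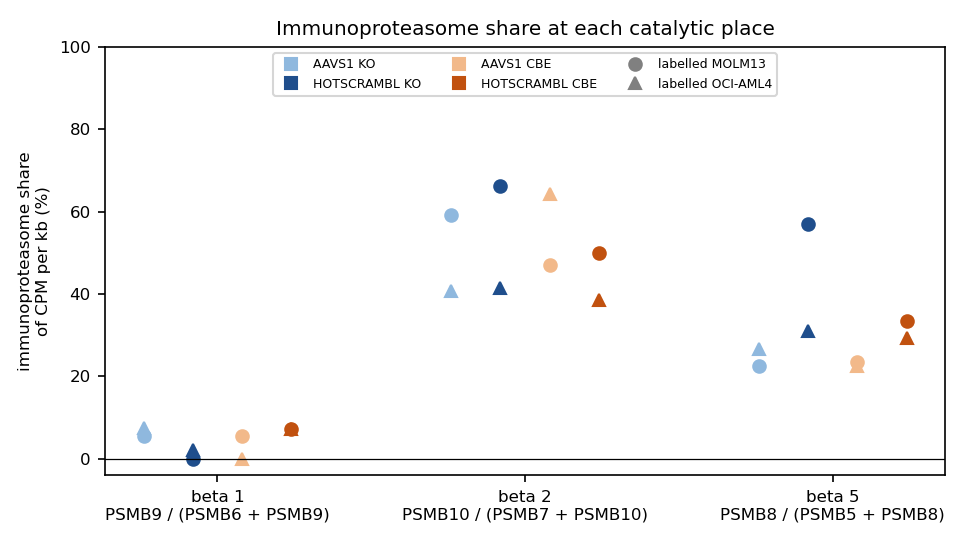
Immunoproteasome share of the summed level per kilobase of full exon length (vertical axis, %) at the 3 catalytic places in each library. At the place of PSMB5 and PSMB8 the HOTSCRAMBL libraries (29.3% to 56.9%) lay above the AAVS1 libraries (22.4% to 26.7%), and at the place of PSMB6 and PSMB9 no library passed 7.37%.

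Among the 20 tested genes of the 19S particle, 1 passed the test. PSMD7, a scaffold partner of the deubiquitinase PSMD14, had 25 and 30.8 CPM in the AAVS1 and 42.2 and 58.4 in the HOTSCRAMBL libraries with CBE, without overlap, and rose (log2 fold change 0.83, SE 0.238, edgeR adjusted p 0.0252). With KO it had 27.6 and 26.6 CPM in AAVS1 and 35.2 and 28.4 in HOTSCRAMBL libraries (0.22, edgeR adjusted p 0.732). Its exons overlap another gene over 31.2% of their length. The CBE call was lost without scaling (edgeR adjusted p 0.068) and with only the 4 libraries of the contrast (0.088), as it was without AAVS1 KO replicate 1 or 2 (0.062 for both), AAVS1 CBE replicate 1 (0.331) or 2 (0.166), or HOTSCRAMBL CBE replicate 1 (0.098) or 2 (0.382).

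The 6 ATPase genes, whose products form the unfolding ring, all had positive values with KO, from 0.15 for PSMC4 to 0.90 for PSMC1, with a median of 0.56. In 4 of them (66.7%), PSMC2, PSMC3, PSMC5 and PSMC6, both HOTSCRAMBL libraries lay above both controls, against 21% of all genes. With CBE their median was 0.18, with 5 positive values, and PSMC5 stood at −0.11. None was called with either editor (edgeR, 2 with KO and 1 with CBE at an unadjusted p under 0.05). The exons of PSMC1 overlap NRDE2 over 76.1% of their length, and its HOTSCRAMBL KO libraries, at 4.69 and 22.2 CPM, lay on either side of the controls. The 14 non-ATPase genes had medians of 0.10 and 0.24, with 10 positive values each time.

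**Figure D4:**
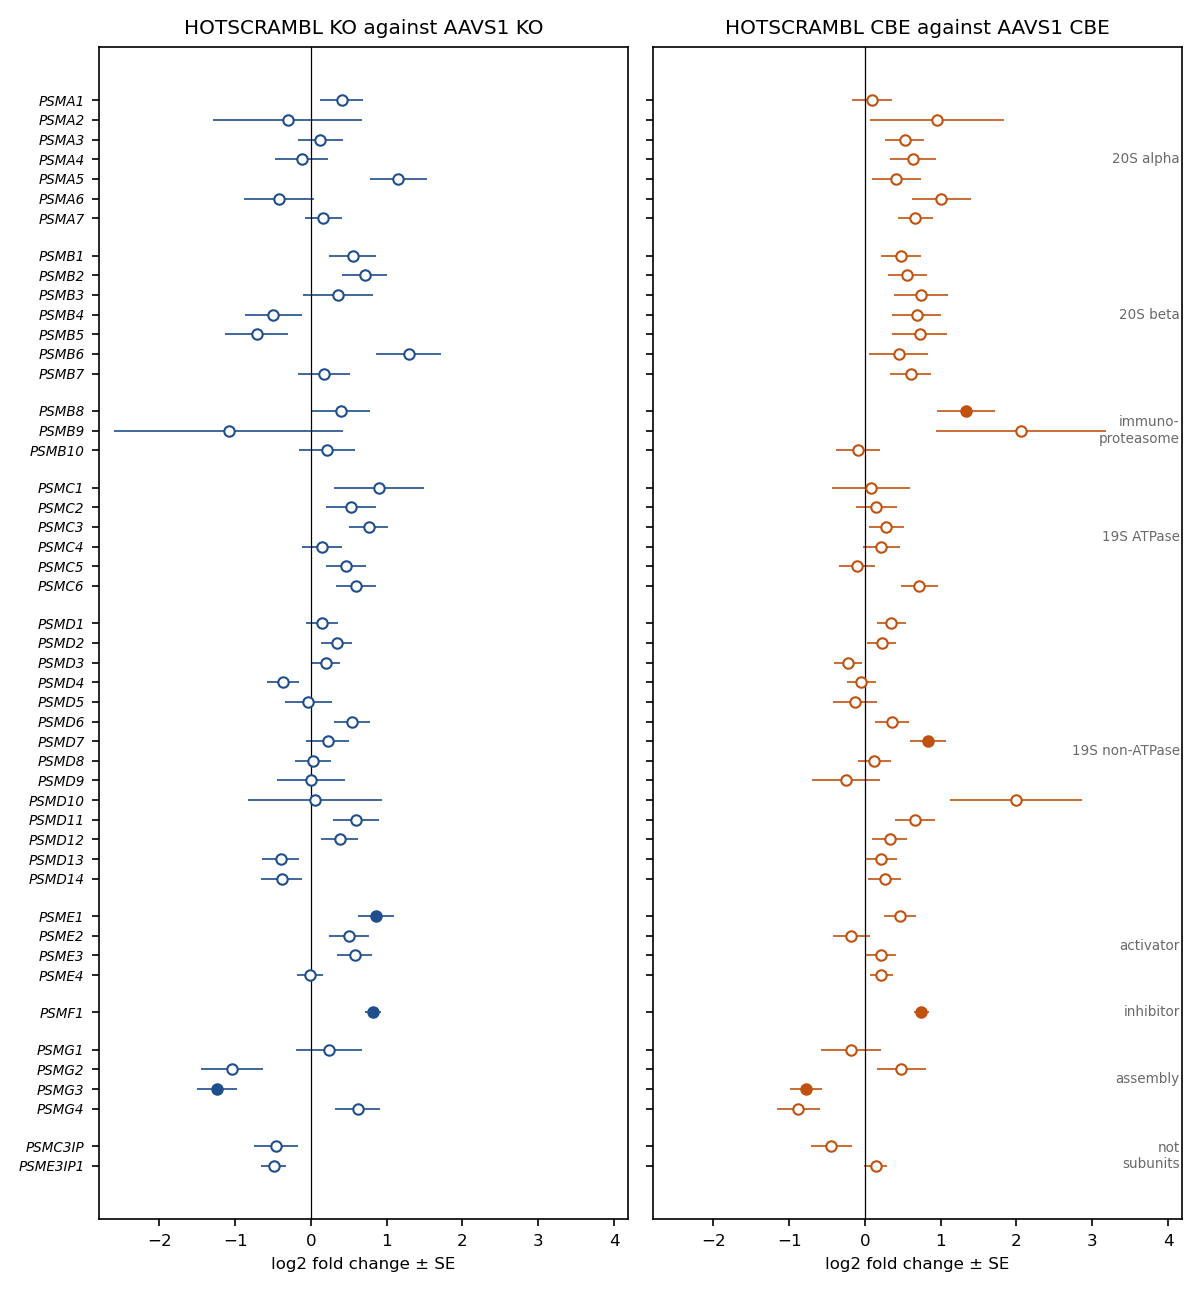
Log2 fold change ± SE (horizontal axes) of all 48 tested proteasome genes, grouped by role, for HOTSCRAMBL against AAVS1 with KO (left) and CBE (right), with filled points for edgeR adjusted p under 0.05. All 14 core genes lie right of 0 with CBE, and filled points mark PSME1, PSMF1 and PSMG3 on the left and PSMB8, PSMD7, PSMF1 and PSMG3 on the right.

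PSMF1, which encodes the inhibitor PI31, rose with both editors. It stood at 400.5 and 471 CPM in the AAVS1 and 674 and 861 in the HOTSCRAMBL libraries with KO, and 445 and 471, then 793 and 735, with CBE. All 4 HOTSCRAMBL libraries lay above all 4 AAVS1 libraries. The log2 fold change was 0.81 with KO (SE 0.105, edgeR adjusted p 3.52e-06) and 0.74 with CBE (SE 0.103, edgeR adjusted p 1.17e-05). The call held in both comparisons under all 17 alternatives, with log2 fold changes from 0.65 to 0.94 and from 0.57 to 0.90. The 2 effects differed by 0.07 (SE 0.146, edgeR adjusted p 0.898).

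PSMF1 was also the most abundant of the genes, at 58.5 CPM per kilobase of exon, and it took 21.6% to 24.8% of the summed proteasome level in AAVS1 and 30.0% to 34.7% in HOTSCRAMBL libraries. Without it the sum was 1457 and 1427 CPM in the AAVS1 and 1574 and 1619 in the HOTSCRAMBL libraries with KO, and 1428 and 1500, then 1682 and 1717, with CBE, so the groups still did not overlap. The gene (chromosome 20, 1113240 to 1189415, plus strand, GRCh38) shares 8.07% of its exon length with TMEM74B and another gene.

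Of the 4 activator genes, which encode caps that open the core without ATPases, PSME1 rose with KO. This PA28 alpha gene had 27.4 and 39.6 CPM in AAVS1 KO and 59.8 and 61.6 in HOTSCRAMBL KO, without overlap (log2 fold change 0.86, SE 0.239, edgeR adjusted p 0.0219). With CBE it went from 39.5 ± 2.07 (mean and SD, n = 2) to 59.5 and 48.7 CPM, also without overlap, but did not pass the test (0.46, edgeR adjusted p 0.217). PSME2, its partner in the same cap, had values of 0.51 and −0.18, neither called. The KO call of PSME1 was lost without scaling (edgeR adjusted p 0.064), with only the 4 libraries of the contrast (0.113), and without AAVS1 KO replicate 1 (0.495) or HOTSCRAMBL KO replicate 1 (0.157) or 2 (0.19).

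The 4 assembly chaperone genes, which guide the building of the core, had values of both signs with each editor. PSMG1 had log2 fold changes of 0.24 with KO and −0.18 with CBE and PSMG2 of −1.04 and 0.48, none called. PSMG3 (chromosome 7, 1567332 to 1571005, minus strand, GRCh38) had 61.4 and 48.4 CPM in the AAVS1 and 17.9 and 27.9 in the HOTSCRAMBL libraries with KO, and 66.8 and 65.2, then 41.0 and 35.6, with CBE. All 4 HOTSCRAMBL libraries lay below all 4 AAVS1 libraries, and PSMG3 fell with both editors (log2 fold changes −1.24, SE 0.267, edgeR adjusted p 0.00257, and −0.78, SE 0.211, edgeR adjusted p 0.0179). Its exons overlap PSMG3-AS1 over 3.04% of their length. The KO call was lost without AAVS1 KO replicate 1 (edgeR adjusted p 0.157) or HOTSCRAMBL KO replicate 1 (0.141), and the CBE call without AAVS1 KO replicate 1 (0.051), AAVS1 CBE replicate 1 (0.207) or 2 (0.194), or HOTSCRAMBL CBE replicate 1 (0.224) or 2 (0.219). With only the 4 libraries of each contrast both were lost (edgeR adjusted p 0.095 and 0.078).

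PSMG4 was the 1 gene of 48 (2.08%) whose effect differed between the editors, against 3.19% of all genes (1.74% higher and 1.45% lower). It had 26.9 and 25.4 CPM in AAVS1 KO and 52.1 and 29.2 in HOTSCRAMBL KO, but with CBE 37.2 and 37.3 in AAVS1 and 16.9 and 24.8 in HOTSCRAMBL libraries. The libraries were separate in both comparisons, in opposite directions. The controls were separate as well, with both AAVS1 KO libraries below both AAVS1 CBE libraries, as in 15.8% of all genes. Their log2 fold change, KO against CBE, was −0.51 (not called). The difference of the effects was 1.495 (SE 0.412, edgeR adjusted p 0.0424), while neither effect was called by itself (0.62, edgeR adjusted p 0.243, and −0.88, edgeR adjusted p 0.0537). The call was lost without the line term (edgeR adjusted p 0.055) and when any library but HOTSCRAMBL KO replicate 2 was left out, with a difference then between 0.96 and 1.88. Its exons overlap SLC22A23 and TUBB2B over 15% of their length.

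**Figure D5:**
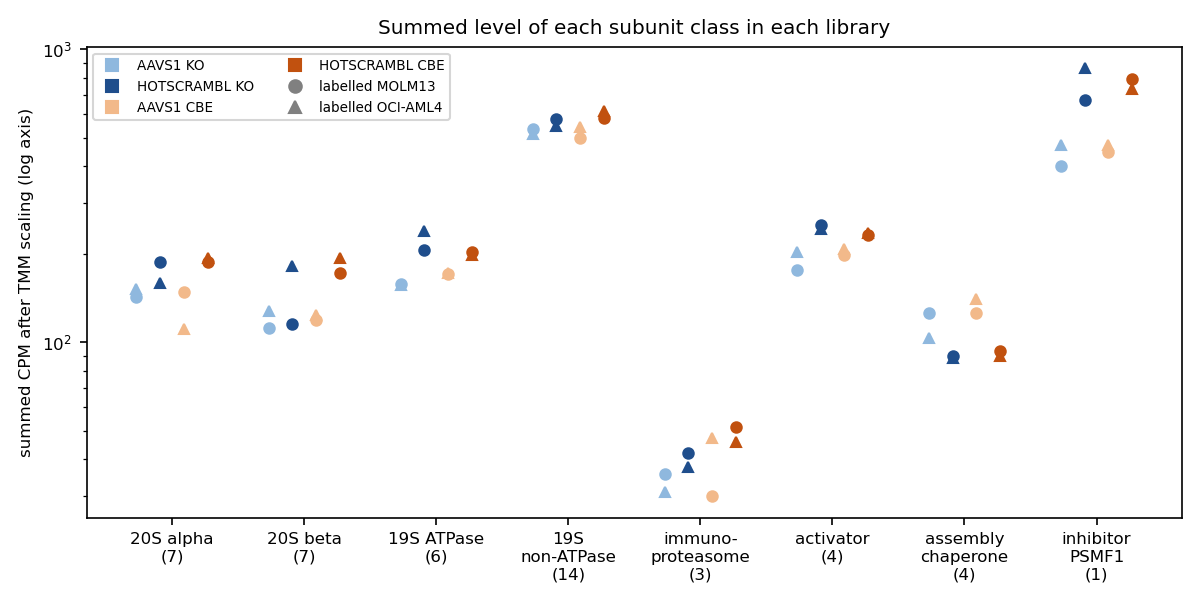
Summed level (vertical log axis, CPM after TMM scaling) of each class of proteasome genes in each library, with the number of tested genes in brackets. The 20S alpha, ATPase, non-ATPase and activator sums were higher, and the assembly chaperone sums lower, in both HOTSCRAMBL libraries than in both AAVS1 libraries of the same editor, and the PSMF1 level showed the widest gap.

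Among the 7 genes with the interferon-type letters shown above, the log2 fold changes with KO and CBE were 0.39 and 1.33 for PSMB8, 0.86 and 0.46 for PSME1, 0.51 and −0.18 for PSME2, 0.21 and −0.09 for PSMB10, 0.62 and −0.88 for PSMG4, −0.50 and 0.68 for PSMB4, and −0.12 and 0.63 for PSMA4. With each editor the 7 values had both signs.

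Partners of the proteasome were taken from a list of 50 genes, chosen with earlier results of these data known. With KO 5 were called higher and 4 lower (18% together), and with CBE 11 higher and 2 lower (26%), against 8.76% and 8.83% of all tested genes and 13.1% and 13.7% of protein-coding ones. RPS27A, which encodes ubiquitin fused to a ribosomal protein, had the smallest p with both editors (log2 fold changes 2.12 with KO and 1.74 with CBE). It is also 1 of the ribosomal protein genes, of which 70 and 73 of the 84 tested were called higher. UBB, a polyubiquitin gene, had 0.68 and 0.96. With KO, TXNL1, a thioredoxin-like protein bound to the 19S particle, was also higher (0.99). NPLOC4, a cofactor of the unfoldase VCP, was lower with both editors (−0.62 and −0.62), as was NLRC5, an activator of HLA class I and immunoproteasome genes (−0.56 and −0.82). FAF1 (−0.57) and MAFG (−0.68), another VCP cofactor and a partner of NFE2L1, were lower with KO. The calls of RPS27A with both editors, and of UBB with CBE, held under all 17 alternatives, and each of the others named here was lost under at least 1.

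NFE2L1 and B2M were the 2 of the 50 partner genes (4%) whose effect differed between the editors, against 3.19% of all genes. NFE2L1, the transcription factor that raises proteasome genes when degradation is blocked, had 270 and 236 CPM in the AAVS1 and 233 and 173 in the HOTSCRAMBL libraries with KO, and 235 and 217, then 332 and 274, with CBE. It lay below its controls with KO (log2 fold change −0.33, edgeR adjusted p 0.103) and above them with CBE (0.42, edgeR adjusted p 0.0176), a difference of −0.75 (edgeR adjusted p 0.00884). B2M, the light chain of HLA class I, had 36.5 and 40.7, 47.1 and 59.7, 33.1 and 38.9, and 127 and 123 CPM in the same order. It rose with CBE (1.81, edgeR adjusted p 6.86e-08), and the effects differed by −1.33 (edgeR adjusted p 0.00707). Leaving out single libraries could end either call of a difference, with an edgeR adjusted p of up to 0.17 for NFE2L1 and 0.118 for B2M. The CBE call of NFE2L1 was lost under 9 of 17 alternatives, with an edgeR adjusted p of up to 0.377. Without the line term, the replicate block, it had an edgeR adjusted p of 0.0995, and the difference between editors one of 0.0771.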

How the data were processed

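The authors deposited whole-number counts per gene from 8 ChIRP RNA libraries. Per the file headers, they were made by featureCounts 2.0.6 with Ensembl 112 (GRCh38), without strand, multi-mapping or multi-overlapping reads, and with both reads of a pair counted. The aligner is not given in the sources used here. Broken records of 2 genes were rejoined. Biotypes came from GENCODE 29.

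All 8 libraries (20548300 to 37970163 counts) were fitted with edgeR 4.0.16 (R 4.3.3): robust quasi-likelihood F-test, TMM, filterByExpr at a minimum count of 10 (24057 genes), terms for 4 groups and the labelled line, 3 residual degrees of freedom, and Benjamini-Hochberg adjustment over all genes with a threshold of 0.05. CPM are TMM-scaled. The test was checked on simulated counts with known fold changes in HOTSCRAMBL KO only and no line effect. These held no shift of ribosomal or mitochondrial RNA, so they do not show how the test behaves under one. Groups came from the titles, which pair libraries by line. Deviations of libraries with the same line label correlated at r = 0.0154 to 0.0411. Libraries of a group differed beyond counting noise (chi-square per degree of freedom 33.8 to 39.7).

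Members and lists were chosen with earlier results of these data known. Values per library are given for the 6 catalytic genes and up to 5 members of smallest p per direction and contrast among those called, and partners are named by the same limit, except a few that are not reported here. Alternatives were scaling, filter, DESeq2 1.42.0, limma-voom (limma 3.58.1), no line term, 4 libraries only, each library left out, and, added after seeing the data, edgeR's legacy fit.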

Additional observations from a re-analysis of the deposited data

Results flagged for a closer look

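The effect of editing HOTSCRAMBL differed between Cas9 and the base editor, by the test of the difference itself, for 1 of 48 proteasome genes and 2 of 50 partner genes (4%), against 3.19% of all genes. The KO minus CBE difference in log2 fold change was 1.495 for PSMG4, −0.7486 for NFE2L1 and −1.333 for B2M (edgeR adjusted p 0.0424, 0.00884 and 0.00707). For PSMG4 the AAVS1 libraries also did not overlap between the editors, lower with KO, as in 15.8% of all genes.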

How the results depend on the processing

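PSMF1 kept its direction and its call with both editors under all 17 alternatives. The number of proteasome genes called with KO was 3, and it was 12 with DESeq2, 6 with edgeR's legacy fit and 1 with only the 4 libraries of the contrast. With CBE the 4 called genes became 7 with DESeq2 and 1 with the 4 libraries. Over all genes DESeq2 called more too, 4150 against 2108 with KO and 3351 against 2124 with CBE, and the 4 libraries gave fewer, 784 and 673. The legacy fit called 2520 of all genes with KO. For the difference between editors, 1 gene was called, 3 with DESeq2, and 0 without the replicate block, that is, without the line term that pairs libraries (edgeR, 6 at an unadjusted p under 0.05). Over all genes these counts were 767, 2205 with DESeq2 and 503 without the block. The block changed no other count of called proteasome genes. Leaving out 1 library at a time gave 1 to 3 calls with KO, 1 to 4 with CBE and 0 to 1 for the difference. Without scaling the median log2 fold changes of the 48 genes were 0.045 and 0.199. Log2 fold changes that turned sign did so when 1 library was left out. Over such fits the KO values ran from −0.557 to 0.551 for PSMB7, −8.33 to 0.0495 for PSMB9 and −0.182 to 0.687 for PSMB10, and the CBE values from −0.134 to 0.968 for PSMB6 and −0.676 to 0.517 for PSMB10, with 0.102 in a second fit above 0. None of these values passed the test. Where fewer libraries were fitted, residual degrees of freedom were fewer too, and a group left with 1 library was assumed to vary like the others. The cause of the other changes was not tested. PSMB9, PSMA2 and PSMD10 had mean levels of 1.27, 2.00 and 2.43 CPM, which limits what could be detected in them.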
